A study of Monascus purpureus with 6 samples.

Results

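The subject here is 10 genes of *Monascus purpureus* that the study labels as transcription factors, all of them lower in the winter strain than in the YY-1 strain. They were selected on the measured values themselves. Each is labelled as a transcription factor, and its normalized count is lower in every winter library than in every YY-1 library. The group is a part of the transcription factor genes that the study shows as lower in winter, and the others were not analysed here. It holds 10 of the 7491 rows of the deposited table, and all 10 passed the filter on low counts that left 7355 genes. Because the strain difference chose the genes, their levels and fold changes are described without a test. The study identified its transcription factor candidates from Pfam domains. The type of DNA-binding domain and the targets of each of the 10 proteins are not given in the sources used here.

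RNA was taken from mycelia of the winter strain and of the YY-1 strain during pigment production, with 3 libraries for each strain, named replicates a, b and c. Winter is a single transformant of YY-1 that carries a hygromycin resistance cassette and was picked for its low citrinin production, so any difference is between a single clone and its parent. The place of the insertion is not given in the sources used here. The study describes the libraries as independent biological triplicates. The total counts were 15194009 to 16004947 in winter and 9661178 to 10595943 in YY-1, and the 10 genes had between 384 and 20291 reads in a library. Levels are given as CPM, the count relative to a library size scaled by TMM (trimmed mean of M-values), and are not divided by gene length. They compare the strains for a gene and do not rank the genes among themselves.

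Transcription factors bind DNA near their target genes and raise or lower their transcription. In filamentous fungi, genes of a secondary metabolite pathway often lie side by side in a cluster, and many clusters hold a regulator of their own, commonly of the zinc cluster family. Other regulators lie elsewhere in the genome and answer to carbon, nitrogen, pH, light or development. CtnA, the activator of citrinin synthesis, is a regulator of the cluster type. C5.141 and C3.618, both among the 10 genes, are discussed in the study's text beside citrinin synthesis.

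The 10 genes were lower in winter by 2.10-fold to 6.11-fold. Their log2 fold changes (log2FC, winter over YY-1, given with the standard error, SE) lay between -2.61 and -1.07, with a median of -1.40, while the median of all tested genes was -0.03. In the whole table, 31.0% of the tested genes had every winter library below every YY-1 library, and 12.1% had a log2FC below -1. The summed level of the 10 genes was 1863, 1848 and 2008 CPM in winter replicates a, b and c, against 6264, 4871 and 5849 CPM in the same replicates of YY-1. C3.618 alone gave 734, 712 and 731 CPM of these sums in winter and 1725, 1678 and 2107 CPM in YY-1. All 10 kept the separation of the strains when CPM was computed from library totals alone.

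**Figure D1:**
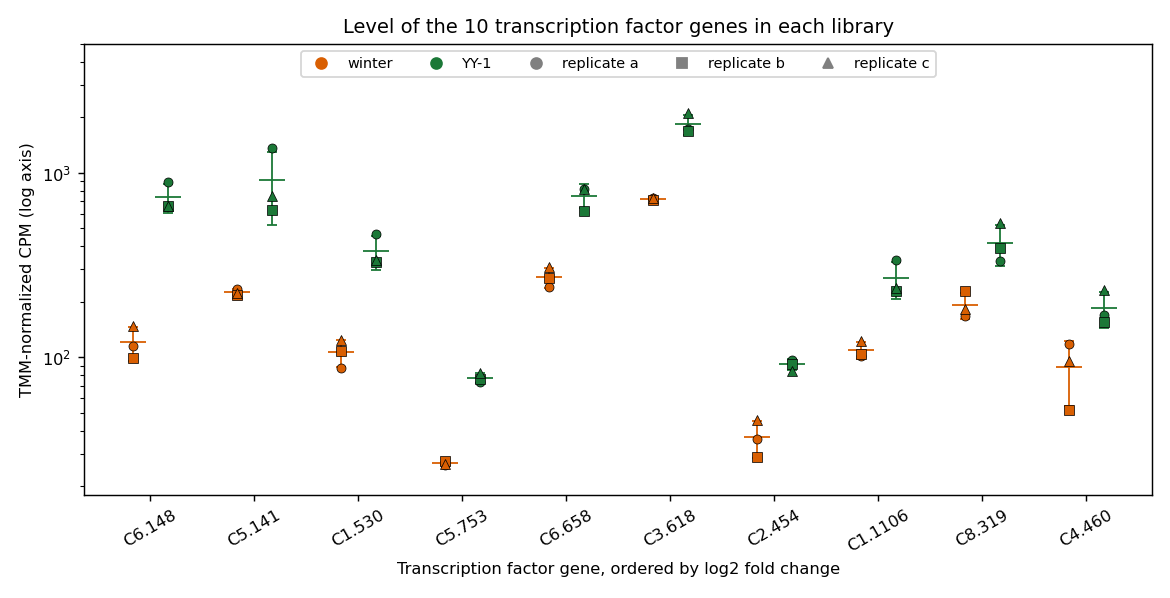
Level of each of the 10 transcription factor genes in TMM-normalized CPM on a log axis, with winter in orange on the left and YY-1 in green on the right of each pair. Symbols are single libraries, the horizontal bar is the mean of 3 libraries and the whisker 1 SD. The winter points lie below the YY-1 points for each gene, as the choice of the genes requires, and the gap is widest for C6.148 and narrowest for C4.460.

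The widest difference was that of evm.TU.C6.148. It had 115, 99.2 and 148 CPM in winter replicates a, b and c, against 888, 663 and 666 CPM in the YY-1 replicates. The lowest YY-1 value was 4.47 times the highest winter value. It was lower in winter by 6.11-fold, with a log2FC of -2.61 (SE 0.22). Of all tested genes, 1.21% had a lower log2FC.

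The gene evm.TU.C5.141 stood out by its spread in YY-1. It had 236, 219 and 223 CPM in winter replicates a, b and c, against 1359, 632 and 748 CPM in the YY-1 replicates. The winter cultures were close to each other, and replicate a of YY-1 was 2.15 times as high as replicate b. The log2FC was -2.02 (SE 0.27) with all libraries and -1.58 without YY-1 replicate a, the largest shift that leaving out a library caused in any of the 10 genes.

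For evm.TU.C1.530, the values were 87.6, 109 and 124 CPM in winter replicates a, b and c, against 466, 329 and 335 CPM in the YY-1 replicates. Replicate a was the lowest culture of winter and the highest of YY-1. The log2FC of -1.82 (SE 0.20) corresponds to a level of 28.3% of that in YY-1.

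The gene evm.TU.C5.753 had the lowest counts of the group and little spread between cultures. It had 26.1, 27.3 and 26.5 CPM in winter replicates a, b and c, against 73.3, 76.4 and 82.5 CPM in the YY-1 replicates. Its log2FC was -1.54 (SE 0.13), and leaving out any library kept it between -1.56 and -1.49, the narrowest range of the 10 genes.

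The level of evm.TU.C6.658 was 239, 269 and 308 CPM in winter replicates a, b and c, against 817, 624 and 821 CPM in the YY-1 replicates. YY-1 replicate b was below the other YY-1 cultures and still 2.03 times the highest winter value. The log2FC was -1.47 (SE 0.19).

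The gene evm.TU.C3.618 had the highest counts of the group in each library. It had 734, 712 and 731 CPM in winter replicates a, b and c, against 1725, 1678 and 2107 CPM in the YY-1 replicates. The log2FC was -1.34 (SE 0.18), and the coefficient of variation (CV, the SD as a percentage of the mean) was 1.71% in winter and 12.8% in YY-1.

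For evm.TU.C2.454, the cultures of winter differed more than those of YY-1. It had 36.3, 28.8 and 45.5 CPM in winter replicates a, b and c, against 97.1, 92.6 and 84.9 CPM in the YY-1 replicates. The CV was 22.7% in winter and 6.76% in YY-1, and the log2FC was -1.31 (SE 0.18).

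The values of evm.TU.C1.1106 were 101, 105 and 123 CPM in winter replicates a, b and c, against 336, 230.2 and 237 CPM in the YY-1 replicates. As for C6.148, C5.141 and C1.530, replicate a was above the other cultures of YY-1. The log2FC of -1.29 (SE 0.19) moved to no higher than -1.05 when a library was left out.

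The genes evm.TU.C8.319 and evm.TU.C4.460 had the smallest differences and lay nearest to the limit of the rule. C8.319 had 168, 228 and 183 CPM in winter replicates a, b and c, against 331, 391 and 536 CPM in the YY-1 replicates, and a log2FC of -1.12 (SE 0.21). The lowest YY-1 value of C8.319 was 1.45 times the highest winter value. C4.460 had 118, 51.7 and 95.5 CPM in winter replicates a, b and c, against 171, 155 and 231 CPM in the YY-1 replicates, where the ratio was 1.31, the smallest of the group. No gene labelled as a transcription factor with overlapping strains was analysed here, so the far side of the limit is not shown. The winter cultures of C4.460 were far apart, with replicate a 2.28 times as high as replicate b. Its log2FC was -1.07 (SE 0.28) with all libraries, -0.80 without winter replicate b and -1.33 without winter replicate a.

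**Figure D2:**
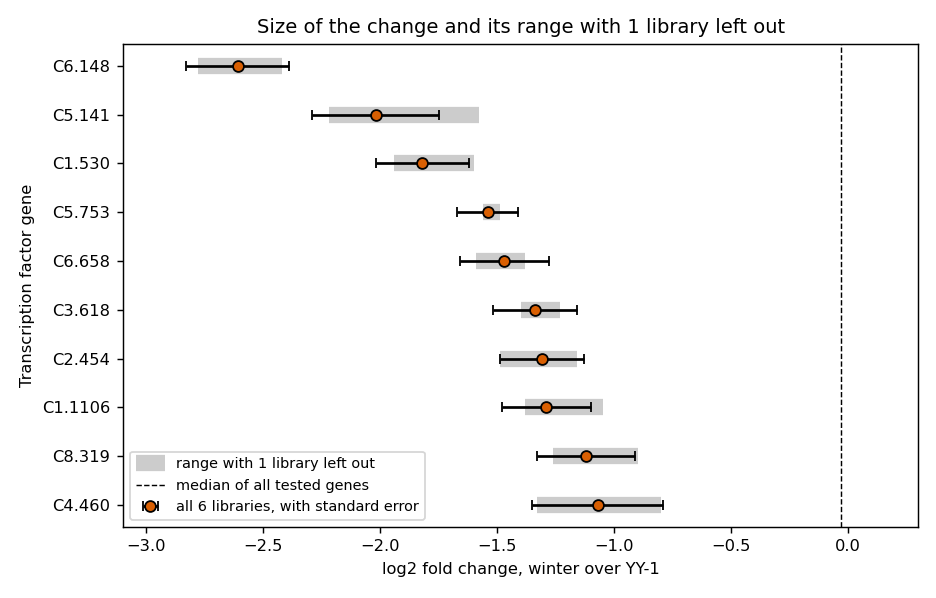
Log2 fold change of each gene, winter over YY-1 (x axis), with the genes on the y axis ordered from the largest to the smallest difference. Points are the values from all 6 libraries with their standard error, grey bars the range when 1 library is left out, and the dashed line the median of all tested genes at -0.03. The grey bar is longest for C5.141, between -2.22 and -1.58, and shortest for C5.753.

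The spread between cultures varied widely from gene to gene. The CV of the 10 genes ran from 1.71% (C3.618) to 38.2% (C4.460) in winter, and from 5.99% (C5.753) to 42.8% (C5.141) in YY-1. The median was 14.4% in winter and 19.0% in YY-1, where all tested genes had medians of 12.9% in winter and 14.9% in YY-1. The CV was lower in winter for 7 of the 10 genes and for 57.6% of the tested genes. On library totals without TMM the medians of the 10 genes were 16.4% in winter and 16.3% in YY-1. There, 5 of the 10 had the lower CV in winter, so for the 10 genes the order of the strains rests on the scaling. For all tested genes the order held on library totals, with medians of 13.2% in winter and 16.8% in YY-1. The CV was then lower in winter for 61.3% of the tested genes.

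The 3 genes with the most even winter cultures were C3.618, C5.753 and C5.141, with 1.70%, 3.03% and 8.09% of the tested genes having a lower CV in winter. In YY-1, C5.141 was at the other end, with 96.3% of the tested genes below its CV. C4.460 was the least even gene in winter, above 96.9% of the tested genes.

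**Figure D3:**
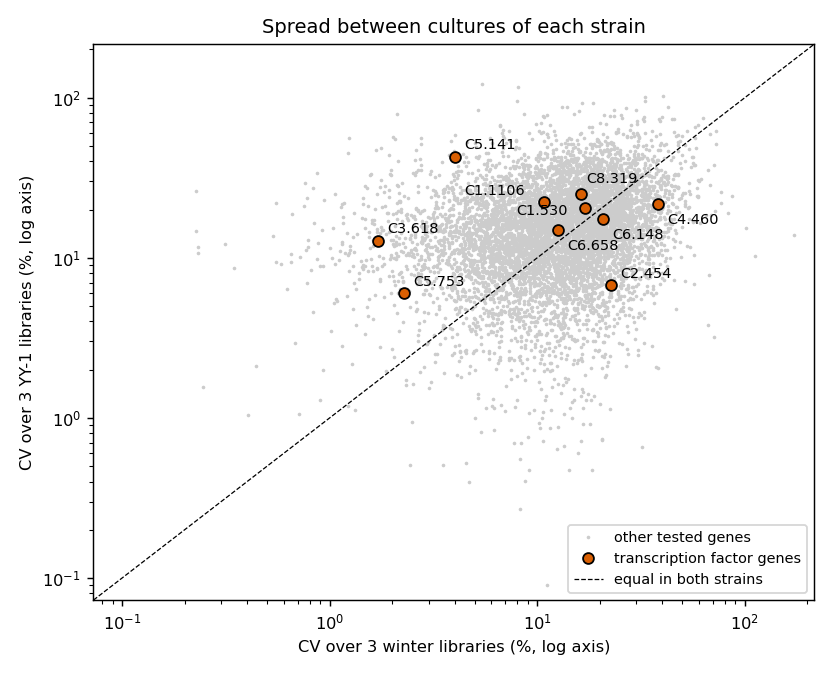
CV over the 3 winter libraries (x axis, %) against CV over the 3 YY-1 libraries (y axis, %), both on log axes, for the 10 genes in orange and the other tested genes in grey. Genes above the dashed line varied less in winter. C5.141 lies far above it, with 4.01% in winter and 42.8% in YY-1, and C2.454, C4.460 and C6.148 lie below it.

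The culture with the highest value was shared among several of the genes and depended in part on the scaling. YY-1 replicate a was the highest YY-1 culture for C6.148, C5.141, C1.530, C2.454 and C1.1106. YY-1 replicate c was the highest for C5.753, C6.658, C3.618, C8.319 and C4.460. Of all tested genes, 31.3% were highest in YY-1 replicate a and 32.7% in replicate c. YY-1 replicate b was the highest for 0 of the 10 genes and the lowest for 7 of them, while 36.0% of the tested genes were highest and 30.5% lowest in that library. Replicate b had the largest TMM factor of the YY-1 libraries (1.102, against 1.051 in a and 0.951 in c). On library totals replicate b was the lowest for 3 of the 10 genes and for 17.2% of the tested genes. The highest YY-1 culture was then a for 6, b for 1 and c for 3 of the 10 genes. The shares of all tested genes were 31.9% for a, 49.2% for b and 18.8% for c. Replicate b was thus the highest for fewer of the 10 genes than its share of all tested genes under both scalings. In winter, replicate c was the highest culture for 5 of the 10 genes and the lowest for 0, against 22.2% and 23.4% of the tested genes. This changed little on library totals, where replicate c was the highest for 5 and the lowest for 1, against 20.6% and 24.2% of the tested genes. The part of the scaling in this was not tested beyond these values.

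**Figure D4:**
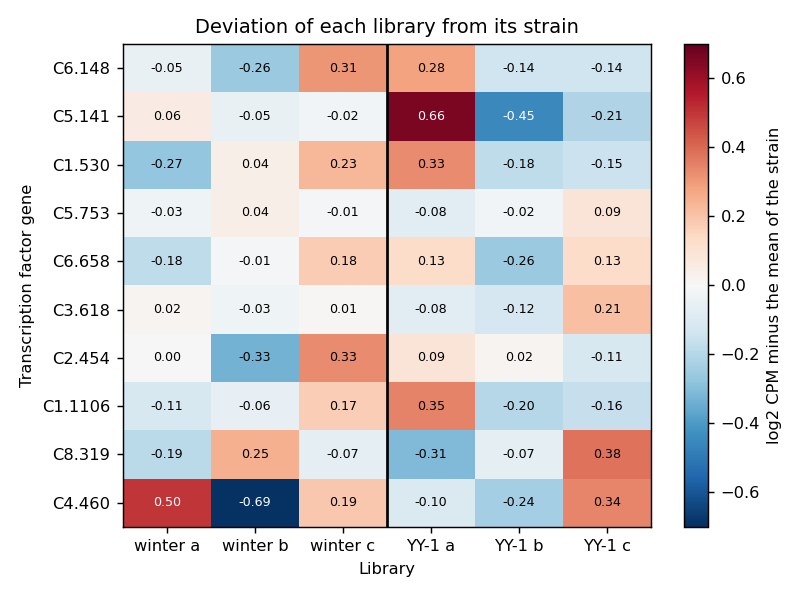
Deviation of each library from the mean of its strain in log2 CPM for the 10 genes (rows), with winter libraries on the left and YY-1 libraries on the right (columns). Red cells are above and blue cells below the strain mean. The largest deviations are 0.66 for C5.141 in YY-1 replicate a and -0.69 for C4.460 in winter replicate b, and the row of C5.753 stays within 0.09 of 0.

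To see which genes ran most alike, each gene was centred on its own mean and compared by the root mean square difference of log2 CPM over the 6 libraries. All 10 genes share the strain difference that chose them, so the measure describes likeness in size and in culture order together. For each of the 10, the gene most like it lay outside the group, which holds 10 of the 7355 tested genes. The closest were C1.47 to C1.530, at 0.049, and C6.857 to C8.319, at 0.051, and C1.47 was the only one of the 10 nearest genes that lay on the scaffold of its partner. C1.47 had 4.83, 6.65 and 7.25 CPM in winter replicates a, b and c, against 26.4, 18.7 and 19.4 CPM in the YY-1 replicates. Within the group, C5.753 and C3.618 were the closest pair, at 0.123. Among all tested genes, C3.618 ranked 12 in likeness to C5.753, and C5.753 ranked 19 in likeness to C3.618. C6.148 and C4.460 were farthest from the rest of the group, with 0.430 from C6.148 to C5.141 and 0.355 from C4.460 to C2.454.

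The identifiers carry a scaffold and a running gene number, so neighbours on the scaffold could be found although distances and strands were not analysed here. The rule did not use these genes, and each was tested between the strains in edgeR's quasi-likelihood test, with Benjamini-Hochberg adjustment over all tested genes and a threshold of 0.05. Of the 98 tested genes up to 5 numbers away, 27 were lower in winter (27.6%, where 25.5% of all tested genes were called lower) and 19 were higher (19.4%, where 22.5% of all tested genes were called higher). Their median log2FC was -0.04. Both shares were near the background, and the counts around single genes below are to be read against the same 25.5% and 22.5%. Of the 20 genes with directly adjacent numbers, 8 were lower (40.0%) and 3 were higher (15.0%), with a median log2FC of -0.39.

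**Figure D5:**
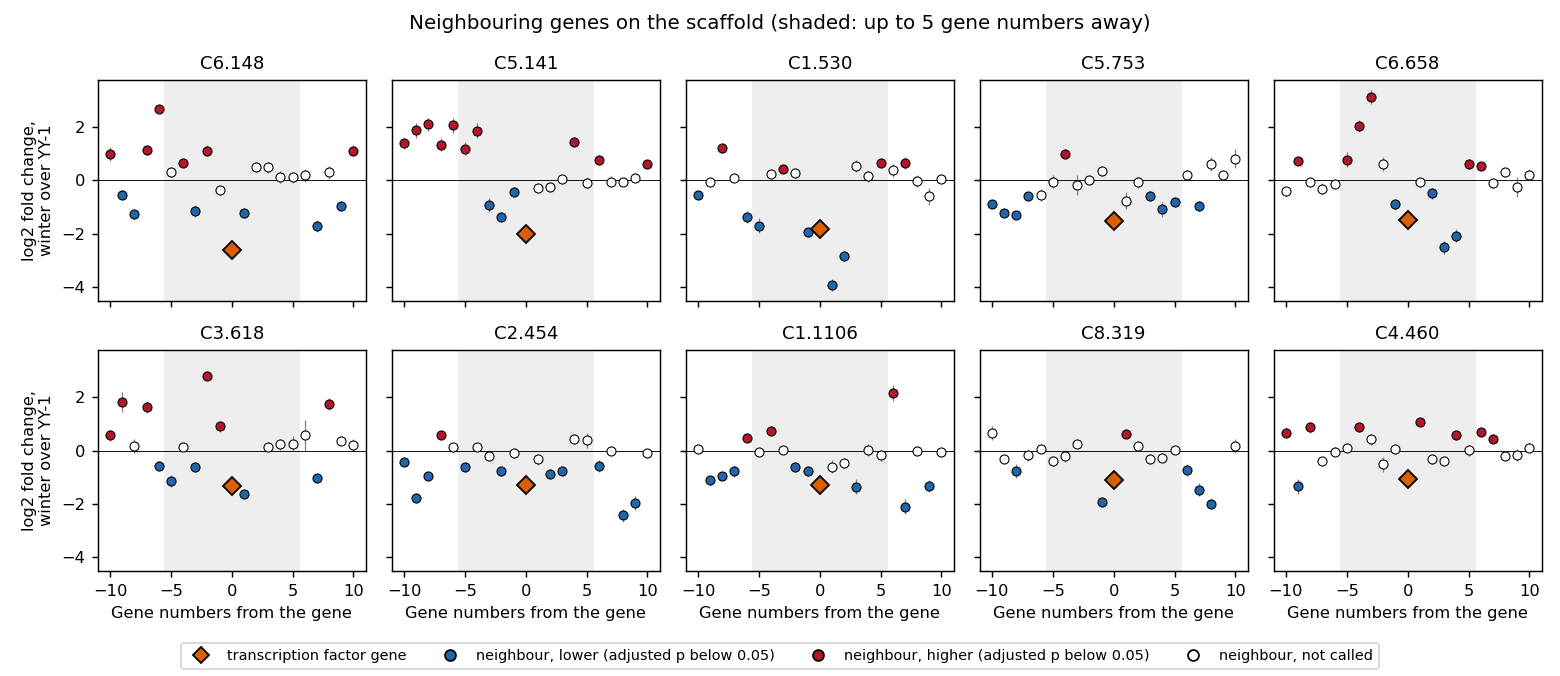
Log2 fold change, winter over YY-1 (y axis), of the tested genes up to 10 numbers before and after each transcription factor gene (x axis, gene numbers), with standard errors. Orange diamonds are the transcription factor genes, blue circles neighbours called lower, red circles neighbours called higher and white circles neighbours that were not called. C1.530 has lower genes on both sides, C5.141 has 3 lower genes directly before it and higher genes beyond them, and C4.460 has no lower gene within 5 numbers.

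C1.530 lay in a run of lower genes. The gene before it, C1.529, had 20.7, 22.4 and 19.0 CPM in winter replicates a, b and c, against 96.1, 76.0 and 68.0 CPM in the YY-1 replicates (log2FC -1.95, SE 0.17, edgeR adjusted p = 1.55e-05). The gene after it, C1.531, had 2.79, 3.93 and 4.61 CPM in winter, against 67.4, 58.6 and 45.9 CPM in YY-1 (log2FC -3.92, SE 0.23, edgeR adjusted p = 1.45e-06). C1.531 had the largest change of all neighbours within 5 numbers of the 10 genes, and it was more strongly lower than C1.530 itself. C1.532 was lower as well, with 34.9 ± 5.54 CPM in winter and 249.7 ± 10.2 CPM in YY-1 (SD, n = 3 each). The run ended with C1.528 before it and C1.533 after it, which did not pass the threshold. C1.529, C1.531 and C1.532 kept their calls in all 12 alternative settings. Whether any of these genes overlap was not analysed, and the sources used here do not state whether the counting used the strand.

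C6.658 lay between genes that moved in opposite directions. Of the 10 genes around it, 4 were lower and 4 were higher. Before it, C6.655 had 290.2, 416 and 383 CPM in winter replicates a, b and c, against 36.2, 30.6 and 56.3 CPM in the YY-1 replicates (log2FC 3.15, SE 0.26, edgeR adjusted p = 1.07e-05). C6.655 is annotated by gene ontology with terpenoid metabolism and an oxidoreductase activity. After it, C6.661 and C6.662 were lower, with log2FC values of -2.51 and -2.07 (edgeR adjusted p = 3.17e-05 and 0.000135). Of the directly adjacent genes, C6.657 was lower (log2FC -0.90, edgeR adjusted p = 0.00509) and C6.659 was not called (log2FC -0.07, edgeR adjusted p = 0.764). C6.653, called higher, kept its call in 5 of 12 alternative settings, and C6.660, called lower, in 3 of 12 and in none of those that left out a library.

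The genes on either side of C3.618 moved in opposite directions. C3.617 was higher in winter, with 171 ± 36.6 CPM in winter and 91.3 ± 18.6 CPM in YY-1 (log2FC 0.91, edgeR adjusted p = 0.00427), and C3.619 was lower, with 7.41 ± 0.788 CPM in winter and 23.1 ± 2.92 CPM in YY-1 (log2FC -1.64, edgeR adjusted p = 5.27e-05, SD, n = 3 each). C3.616 rose most among the genes around C3.618, with 174, 121 and 160.0 CPM in winter replicates a, b and c, against 21.7, 21.4 and 21.8 CPM in the YY-1 replicates. Its log2FC was 2.81 (SE 0.17, edgeR adjusted p = 1.92e-06).

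C8.319 also stood between a lower and a higher gene. C8.318 had 5.17 ± 1.08 CPM in winter and 19.9 ± 1.09 CPM in YY-1 (SD, n = 3 each), with a log2FC of -1.94 (edgeR adjusted p = 3.27e-05). C8.320, which is annotated by gene ontology with a defense response, had a log2FC of 0.63 (SE 0.13, edgeR adjusted p = 0.00289). These were the only 2 calls among the 9 tested genes around C8.319.

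C5.141 lay next to genes of pigment synthesis, 4 numbers after the polyketide synthase gene C5.137. C5.137 had 4408, 2972 and 3909 CPM in winter replicates a, b and c, against 1346, 1077 and 666 CPM in the YY-1 replicates (log2FC 1.87, SE 0.29, edgeR adjusted p = 0.000509). The 3 genes between C5.137 and C5.141 were all lower in winter. C5.139 had the clearest change, with 5.71 ± 0.552 CPM in winter and 14.8 ± 0.294 CPM in YY-1 (SD, n = 3 each, log2FC -1.37, edgeR adjusted p = 0.000129). C5.138 had a log2FC of -0.93 (edgeR adjusted p = 0.0175) and lost its call without YY-1 replicate c or winter replicate b. C5.140, the adjacent gene, had -0.42 (edgeR adjusted p = 0.0460) and kept its call in 6 of 12 alternative settings. The direction thus changed between C5.137 and C5.138, and the gene after C5.141, C5.142, was not called (log2FC -0.30, edgeR adjusted p = 0.150). Among the 16 genes between C5.141 and the oxidoreductase gene C5.124, 17 numbers away, 10 were higher and 5 were lower in winter. Of all tested genes, 22.5% were higher and 25.5% were lower. The higher genes include C5.127, C5.128, C5.133, C5.134, C5.135 and C5.137, which the study discussed as raised from the same libraries, so the count is not independent of that list.

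C6.148 lay 22 numbers after C6.126, a transcription activator gene that the study's text names beside citrinin regulation, and 8 numbers after C6.140, a purported polyketide synthase isoenzyme. C6.126 had 1807 ± 237 CPM in winter and 33.4 ± 9.41 CPM in YY-1 (SD, n = 3 each, log2FC 5.76 and edgeR adjusted p = 4.81e-07). C6.140 was lower, with a log2FC of -1.26 (SE 0.19, edgeR adjusted p = 0.000502). Of the 19 tested genes between C6.126 and C6.148, 12 were higher and 4 were lower in winter, where 22.5% and 25.5% of all tested genes were. The study discussed C6.126 and, within the stretch, C6.127 and C6.140 from the same libraries, so the count is not independent of that choice. The gene after C6.148, C6.149, was lower (log2FC -1.22, SE 0.19, edgeR adjusted p = 0.000500), and the gene before it, C6.147, was not called (log2FC -0.37, edgeR adjusted p = 0.0862), but passed on library totals and without YY-1 replicate b (edgeR adjusted p = 0.0242 without that library).

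C4.460 had no lower gene among the 10 around it, and 3 were higher, among them the adjacent C4.461 with 88.3 ± 13.6 CPM in winter and 41.7 ± 2.29 CPM in YY-1 (SD, n = 3 each, log2FC 1.08, edgeR adjusted p = 0.000333). C4.459 on its other side was not called (log2FC 0.05, edgeR adjusted p = 0.839). C2.454 had 4 lower and 0 higher genes around it, led by C2.456 (log2FC -0.89, edgeR adjusted p = 0.00371), although neither C2.453 (-0.09, edgeR adjusted p = 0.623) nor C2.455 (-0.32, edgeR adjusted p = 0.231) was called. C1.1106 had 3 lower genes and 1 higher gene around it, with log2FC values of -0.77 for the adjacent C1.1105 (edgeR adjusted p = 0.00526), -0.60 for C1.1107 on the other side (edgeR adjusted p = 0.0609) and -1.36 for C1.1109 (edgeR adjusted p = 0.00307). C1.1107 passed without YY-1 replicate c or winter replicate b, with an edgeR adjusted p down to 0.00876. For comparison, 25.5% of all tested genes were lower and 22.5% were higher.

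C5.753 likewise had 3 lower genes and 1 higher gene around it. The lower ones were C5.756, which lost its call without YY-1 replicate b, YY-1 replicate c or winter replicate b, C5.757 and C5.758, of which C5.757 had the largest change (log2FC -1.09, SE 0.27, edgeR adjusted p = 0.00716). The adjacent C5.752 (log2FC 0.36, edgeR adjusted p = 0.114) and C5.754 (log2FC -0.76, edgeR adjusted p = 0.0669) were not called, and C5.754 passed without YY-1 replicate c (edgeR adjusted p = 0.00364).

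Of 11 citrinin and pigment genes outside the group that the study's text names by number, 9 were higher and 2 were lower in winter. Their median log2FC was 1.66, and the shares of all tested genes were 22.5% higher and 25.5% lower. The study discussed the 11 genes from the same libraries, so their direction is not independent evidence. The list leaves out C5.141 and C3.618, which the same text names beside C6.126 and which are lower in winter by the rule, and counting them gives 9 higher and 4 lower genes. The study's text gives *ctnA*, *ctnB* and other genes of the citrinin cluster by name without numbers, so they are not in the list. It reports *ctnA* and *ctnB* as raised in winter. The 2 lower ones of the 11 were the purported polyketide synthase isoenzyme genes C6.140 and C2.25. C2.25 (log2FC -1.01, edgeR adjusted p = 0.0221) lost its call without YY-1 replicate a or winter replicate b. The 8 pigment genes, among them C5.137, the fatty acid synthase genes C5.127 and C5.128 and the oxidoreductase genes C5.133 and C5.135, had log2FC values between 1.34 and 2.62. These values give the directions side by side, and no regulation of a named gene by any of the 10 was measured.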

How the data were processed

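RNA of mycelia from winter and YY-1 was sequenced in 3 libraries each. After discarding poor reads, the authors aligned the others with TopHat to predicted YY-1 transcripts, counted reads on unique exons with HTSeq and deposited raw counts per gene. The study's methods and the submitters' processing notes name different versions of these tools (TopHat2 2.0.8b and HTSeq 0.5.4p2 in the notes). How reads shared by near-identical genes were treated is not given in the sources used here.

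Counts were fitted in edgeR 4.0.16 (R 4.3.3) with TMM scaling, edgeR's default filter, strain as the only term and the quasi-likelihood test, with Benjamini-Hochberg adjustment over 7355 genes. The study used DESeq, which was not run here; DESeq2 1.42.0 was an alternative. The standard error is the log2 fold change divided by the square root of F. The fit was also run on simulated data with few changed genes and the same spread between cultures for every gene. These data differ in both respects, so that run does not bear on the calls here. Libraries of a strain differed by more than sampling noise (median chi-square over genes 2.02 to 10.2). With 3 libraries a strain, the smallest two-sided p of an exact permutation test is 0.1. The p-values set the strain difference against the spread between these cultures of a single clone and its parent.

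The members, lists and tests were chosen with earlier results of these data known. Named are the 10 genes, their adjacent genes, the most changed called gene within 5 numbers, pathway genes within 25 numbers and the most alike gene (log2 CPM, prior count 2). C1.528, C1.532, C1.533, C5.138, C5.139, C5.756, C5.758, C6.653, C6.660, C6.661 and C6.662 were added after their values were seen. Gene ontology terms of 2 neighbours come from the study's supplement, used in part. No identifier matched the reference gene table, which is for another strain (KUPM5), so no coordinates or sequences are given.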

Additional observations from a re-analysis of the deposited data

How the results depend on the processing

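Under the 12 other scalings, filters, tests and left-out libraries, the log2 fold changes of the 10 genes lay between -2.78 and -0.80. All 120 values were below 0. The rule that chose the genes all but fixed this sign, so only the size of the change is informative here. On library totals the median of all tested genes moved to -0.13 from -0.03 and that of the 10 genes to -1.49 from -1.40. With 1 library left out at a time, 23 to 27 neighbours within 5 numbers were lower and 16 to 21 were higher, 7 to 10 adjacent genes were lower and 3 were higher, and 1 to 2 of the pathway genes were lower and 9 were higher. A window of 2 numbers each side held 14 lower and 5 higher of 38 tested genes, and a window of 10 numbers held 56 lower and 45 higher of 197. The share of lower genes was larger, and that of higher genes smaller, in the window of 2 numbers than in the wider windows. Of all tested genes, 25.5% were lower and 22.5% were higher. At an adjusted p below 0.01, 1 pathway gene was lower. The other counts of neighbours, adjacent and pathway genes stayed within 1.5 times under DESeq2, other scalings and other filters.

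Whether the replicate letters pair the cultures was not settled. The deviations of same-lettered libraries correlated at 0.097 (a), 0.278 (b) and 0.104 (c) across genes, and pair a narrowly missed the criterion used, a correlation over 0.1 in each pair. Between different letters the correlations lay between -0.296 and 0.178, and winter replicate c correlated best with YY-1 replicate a. With the letter as a replicate block, 27 neighbours were lower and 23 higher, 9 adjacent genes were lower, C1.1107 now among them, and the median log2 fold change of the 10 genes was -1.40.

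With 3 libraries a strain, the spread of a single gene is known poorly, and no culture can be told from its library. Gene length, strand and distance between genes were not analysed, so levels were not compared between genes.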
